A study of Mus musculus with 32 samples.

Results

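ERVL and ERVL-MaLR elements are 2 superfamilies of long terminal repeat (LTR) retrotransposons, and their transcripts were followed here through an actinomycin D time course in mouse embryonic fibroblasts undergoing chemical reprogramming. A family was taken as a member when the deposited table of repeats assigned it to the ERVL or the ERVL-MaLR superfamily. This gave 221 of the 1146 repeat families in the table, of which 113 were ERVL and 108 were ERVL-MaLR, and 72 were internal regions and 149 were LTRs. All 12 libraries came from OG2X129 cells, labelled as fibroblasts, in a ciPSC medium with serum replacement, serum, bFGF, VPA, CHIR99021, 616452, Parnate, Forskolin, AM580, EPZ004777 and vitamin C. The control arm is labelled DMSO. The other arm received an agent labelled CD, whose full name the labels do not give. Each arm was sampled after 0, 4 and 8 h in actinomycin D, which blocks transcription by intercalating into DNA, with 2 libraries per arm and time. The labels give neither the day of reprogramming nor the dose of actinomycin D, and they do not say whether replicates were separate cultures, so the p-values measure only the spread between these libraries.

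MERVL is the youngest ERVL lineage of the mouse. Its internal region (MERVL-int) carries gag and pol and is flanked by MT2_Mm LTRs, and MT2A and MT2B are older relatives of that LTR. MERVL is transcribed in the 2-cell mouse embryo and in rare 2-cell-like cells in embryonic stem cell culture, and it is kept silent elsewhere by the TRIM28, SETDB1 and LSD1 (Kdm1a) machinery. Parnate (tranylcypromine), which was in the medium of both arms, inhibits LSD1. ERVL-MaLR elements lack genes for their own transposition. The MT and ORR1 families are rodent elements, MT LTRs serve as promoters in mouse oocytes (an MTC LTR drives the oocyte form of Dicer), and the MLT1 families are older and shared among placental mammals.

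The libraries held 15382821 to 24186485 reads, and the values are reads of a feature per 1000000 reads of the library (CPM). A family's value sums reads over all its copies, so a level is not a level per copy or per length, and reads from autonomous transcription and from repeats inside gene transcripts cannot be told apart. CPM is relative to all other RNA, and fewer cells of a type and less RNA per cell cannot be told apart in such bulk samples. Of 7 pluripotency genes, Nanog, Pou5f1, Zfp42 and Dppa5a were below 1 CPM in all libraries. With Utf1, Esrrb and Sox2 the list summed to 28.6 and 13.1 CPM in CD and 10.4 and 4.04 CPM in DMSO at 0 h. The summed level of 12 fibroblast markers was between 4330 and 7710 CPM. Short-lived mRNAs, a list of 24 found genes that checks the drug, fell for 23 genes in DMSO and 24 in CD at 4 h. Their summed level differed between the replicates of a group, being 8529 and 2509 CPM in CD at 0 h, 2101 and 836 CPM in DMSO at 0 h, and 148 and 361 CPM in DMSO at 8 h. In CD it was 310 and 247 CPM at 4 h and 488 and 504 CPM at 8 h. One row of the table disagreed with the others on the times. MMVL30-int, an ERV1 family and not a member, was not a whole number of reads in any of the 8 libraries at 4 and 8 h, but each of its 4 h values was a whole number of reads at the depth of the 8 h library of the same arm and number, and the reverse held for its 8 h values. Its 4 h and 8 h values are thus exchanged relative to all other rows, and which of these follows the labels was not tested. Every order of 4 and 8 h given here follows the labelled columns.

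The summed level of both superfamilies was lower after 4 h of actinomycin D than before it in both arms, and was higher at 8 h than at 4 h. The summed ERVL level was 384 and 367 CPM at 0 h, 220 and 219 CPM at 4 h and 250 and 315 CPM at 8 h in DMSO. In CD it was 453 and 420 CPM at 0 h, 225 and 214 CPM at 4 h and 312 and 295 CPM at 8 h. The summed ERVL-MaLR level was 1505 and 1440 CPM at 0 h, 815 and 843 CPM at 4 h and 904 and 1112 CPM at 8 h in DMSO. In CD it was 1762 and 1692 CPM at 0 h, 989 and 944 CPM at 4 h and 1291 and 1234 CPM at 8 h. In both sums and arms, both 4 h libraries lay below all 0 h and 8 h libraries. Group means were 375 ± 11.6 (SD, n = 2), 219 ± 0.54 and 282 ± 46.3 CPM for ERVL in DMSO and 437 ± 23.3, 220 ± 8.01 and 304 ± 12.2 CPM in CD. For ERVL-MaLR they were 1472 ± 46.2, 829 ± 19.8 and 1008 ± 147 CPM in DMSO and 1727 ± 49.0, 967 ± 32.0 and 1262 ± 40.9 CPM in CD. At 4 h, ERVL stood at 0.584 of its 0 h level in DMSO and 0.503 in CD, and ERVL-MaLR at 0.563 and 0.560. At 8 h these ratios were 0.752 and 0.695 for ERVL and 0.685 and 0.731 for ERVL-MaLR. With 2 libraries against 2, an exact permutation test of a sum cannot go below a p of 1 in 3, so no test is given for the sums. Scaled to the ERCC spike-ins, the log2 ratio of 8 h to 4 h was 0.019 for ERVL-MaLR and 0.10 for ERVL in DMSO, against 0.28 and 0.36 as deposited.

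**Figure D1:**
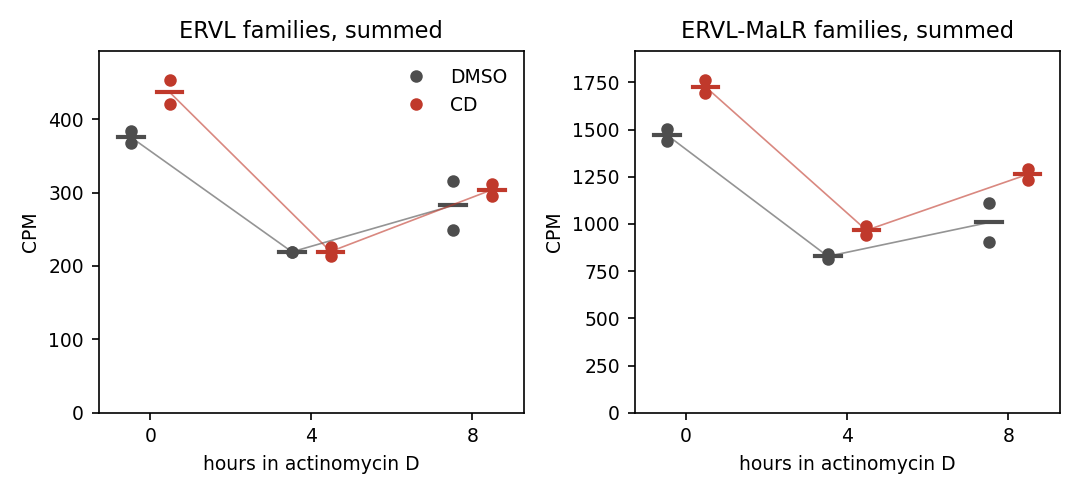
Summed CPM of the ERVL families (left) and the ERVL-MaLR families (right) by hours in actinomycin D. Each point is a library, thick bars are means of 2 libraries, and lines join the means. Both sums are lowest at 4 h in both arms, and at 0 h both CD libraries lie above both DMSO libraries (453 and 420 against 384 and 367 CPM for ERVL).

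MTD alone held 8.02% of the members' CPM, the top 5 families 25.3% and the top 10 families 38.4%. By name group, the 20 MT families held 38.3%, the 29 ORR1 families 31.6%, the 8 MERVL and MT2 families 10.4% and the 59 MLT1 families 9.95%. The 24 RMER and other ERVL families held 5.92%, the 57 ERVL families with numbered LTR names 1.65%, the 10 MLT2 families 1.11% and the 14 other ERVL internal regions 1.05%. At the low end, 108 families had a mean under 1 CPM and 11 had no read in any library. For the tests, 127 families (48 ERVL and 79 ERVL-MaLR) passed a filter of at least 1 CPM in at least 2 libraries, and the other 94 had means of at most 0.765 CPM. Changes were tested with limma on log2(CPM + 1), with p-values adjusted over all 17720 genes and repeat families tested, and the log2 changes understate those of low families.

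Before actinomycin D, no family passed the test between CD and DMSO cells. None of the 127 families had an adjusted p under 0.05 in limma, edgeR or DESeq2. Of all 17720 features, limma called 7.99% higher and 6.16% lower in CD. With edgeR 1076 features were higher and 1884 lower, and with DESeq2 1930 and 2127. At an unadjusted p under 0.05, 9 families were higher and 0 lower in limma, 0 and 3 in edgeR, 1 and 1 in DESeq2, and 5 and 1 in limma scaled by the median ratio of genes. The shares of all features at this unadjusted threshold were not counted. In limma as deposited they are at least the 7.99% higher and 6.16% lower that passed after adjustment. In limma as deposited the smallest adjusted p was 0.0584. With either DMSO 8 h library or CD 0 h replicate 2 left out, the count higher moved, as did that of all features. The median family was 0.18 higher in CD on the log2 scale and the median feature 0.19. The 9 families at unadjusted p included MTC, at 112 and 98.6 CPM in CD against 82.5 and 79.9 CPM in DMSO, and MTEa-int, at 38.6 and 37.8 against 24.2 and 27.2 CPM. Both CD libraries exceeded both DMSO libraries for these 2 families. In 62 of the 127 families both CD libraries lay above both DMSO libraries and in 8 they lay below, beside 39.8% and 19.6% of all features. Markers of cell types differed between these groups: 7 of 12 fibroblast genes, 2 of 6 macrophage genes and 1 of 3 tested endothelial genes were lower in CD. In turn, 4 of 6 genes of extraembryonic endoderm (XEN-like), 4 of 6 epithelial genes and 1 of 3 tested pluripotency genes (Utf1) were higher. The macrophage sum was 139 and 218 CPM in CD and 320 and 455 CPM in DMSO. The XEN-like sum was 2731 and 1410 CPM in CD and 804 and 391.7 CPM in DMSO. The part of these markers in the families' values was not tested.

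Reads of MERVL were found in both arms at 0 h. MERVL-int was at 44.2 and 40.2 CPM in CD and 41.6 and 41.9 CPM in DMSO, and the groups overlapped (difference 0.01 ± 0.14 log2, adjusted p = 0.954, 466 to 1068 reads per library). Its LTR, MT2_Mm, was at 20.0 and 17.6 CPM in CD and 17.1 and 16.1 CPM in DMSO, without overlap but not past the threshold (0.17 ± 0.20, adjusted p = 0.558). The genes that accompany MERVL in 2-cell-like cells were near absent. Of 29 such genes found in the table, 26 failed the filter with no value above 0.323 CPM, 18 had no read in any library, and all 6 Zscan4 genes listed were among those at 0. The 3 tested members are not specific to that state: Nelfa is a subunit of the negative elongation factor, Smarca5 a chromatin remodeller, and Zfp809 a zinc finger repressor of retroviral DNA.

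At 4 h, the fall was broad and was larger than in the median gene. In DMSO, 56 of the 127 families were called lower and 0 higher, against 21.2% of all features lower and 1.34% higher. In CD, 81 were called lower and 1 higher, against 36.9% lower and 8.89% higher. The median family changed by −0.61 in DMSO and −0.74 in CD, and the median feature by −0.24 and −0.30. Since the median gene itself moved, each test was repeated relative to the median gene (libraries scaled by the median ratio of genes), where 31 families in DMSO and 50 in CD were lower (13.3% and 26.2% of all features). A family is said to have fallen or risen only where it passed both ways. By that rule 28 families fell in both arms at 4 h, 3 in DMSO alone and 22 in CD alone. Of the 56 families called lower in DMSO, 54 were also called lower in CD, which is 96.4% of the DMSO list and 66.7% of the CD list. The 2 comparisons have no library in common. Both calls use 1 estimate of the spread from all 12 libraries, so they are not independent. The share of all features lower in both arms was not counted. Across the 62 families with a mean of at least 5 CPM, the 4 h changes of the 2 arms had a Pearson r of 0.50, or 0.78 without MTEb-int, a description over families that share libraries. The DMSO count rests on single libraries. Without DMSO 0 h replicate 1 or DMSO 4 h replicate 1, the calls were lost among the families and among nearly all features. Without DMSO 4 h replicate 2, most calls were lost in both. Under ERCC scaling 0 families and 1 of all 17720 features were called lower, against 3761 features as deposited. The log2 ratio of summed ERVL in DMSO at 4 h was −0.81 to −0.74 with any 1 of its libraries left out. In CD it was −1.05 to −0.94. The CD count of families lower fell when any 1 CD library at 0 or 4 h was left out, and the calls over all features also moved. With both 0 h libraries numbered 1 left out, the counts lower were 31 in DMSO and 56 in CD.

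**Figure D2:**
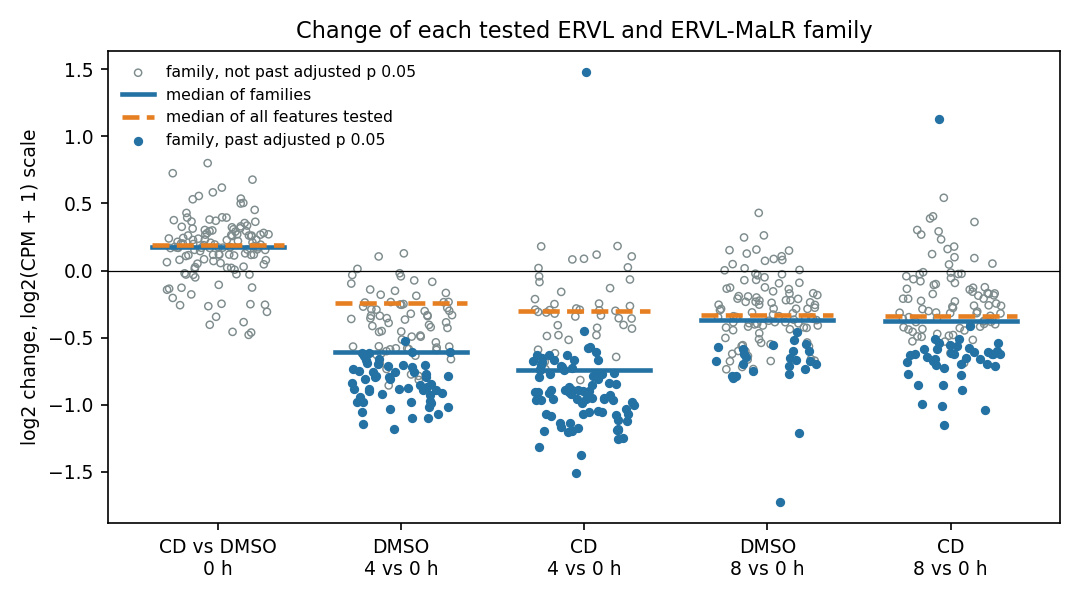
Log2 change of each of the 127 tested families in 5 comparisons, on the log2(CPM + 1) scale. Points are families, filled where the adjusted p was under 0.05, solid lines are their medians and dashed lines the medians of all 17720 features. At 4 h the families' median lies below that of all features (−0.61 against −0.24 in DMSO), at 8 h the 2 lines nearly coincide, and the highest point in CD is MTEb-int.

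In the MERVL and MT2 group, 3 of 8 families fell in DMSO at 4 h and 6 of 8 in CD. As deposited, 6 were called lower in DMSO and 8 in CD, and the other calls did not pass relative to the median gene. MERVL-int was at 26.9 and 27.1 CPM in DMSO and 26.2 and 25.8 CPM in CD at 4 h, below all 0 h libraries. Its change was −0.68 ± 0.14 in CD (adjusted p = 0.0039; 0.0497 relative to the median gene) and −0.61 ± 0.14 in DMSO (0.0155; 0.0823 relative to the median gene). MT2_Mm was at 9.80 and 9.27 CPM in CD and 11.5 and 10.1 CPM in DMSO at 4 h. It fell in CD (−0.91 ± 0.20, adjusted p = 0.0049) and did not pass in DMSO (−0.58 ± 0.20, 0.0622). MT2B, the older LTR, changed most: from 43.1 and 41.1 CPM to 16.8 and 20.4 CPM in DMSO and from 58.1 and 51.6 CPM to 21.8 and 21.1 CPM in CD. MT2B fell in both arms and both scalings (−1.14 ± 0.17 in DMSO and −1.31 ± 0.17 in CD).

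The other ERVL groups were mixed. RMER15, the most abundant of the RMER group, went from 46.9 and 46.1 CPM to 23.8 and 26.9 CPM in DMSO and from 56.7 and 51.6 CPM to 31.7 and 26.8 CPM in CD, and it fell in both arms (−0.85 ± 0.16 and −0.87 ± 0.16, adjusted p = 0.0076 and 0.0018). Its internal region, RMER15-int, was at 4.08 and 2.02 CPM in DMSO and 2.54 and 3.40 CPM in CD at 4 h, from 7.38 to 9.59 CPM at 0 h, and fell in both arms (−1.18 ± 0.32 and −1.26 ± 0.32). Among the LTRs, MER21C and MER21B fell in CD (−1.25 ± 0.26 and −1.20 ± 0.30), and so did the scarcer MER68 and MER77 (−1.51 ± 0.32 and −1.20 ± 0.21). All were picked by the size of their change in CD, and their changes in DMSO are not given. MER68 was at 5.04 and 4.26 CPM in CD at 0 h and 1.64 and 0.485 CPM at 4 h. In contrast, 0 of 7 tested MLT2 families and 1 of 15 LTR-numbered families were called lower in DMSO, and 2 and 5 in CD. These groups are scarce: LTR16C, the most abundant of the LTR-numbered group, had a mean of 2.00 CPM and MLT2B3 of 5.34 CPM. Their sums, which no pseudocount affects, stood at 0.747 (MLT2) and 0.621 (LTR-numbered) of the 0 h level in DMSO at 4 h and at 0.695 and 0.460 in CD. MT sums stood at 0.538 and 0.583 and ORR1 sums at 0.586 and 0.529. Whether these ratios differ between groups was not tested.

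In the ERVL-MaLR superfamily, MT and ORR1 families carried most of the calls. At 4 h, 13 of 20 MT and 19 of 28 ORR1 families tested were called lower in DMSO, and 15 and 24 in CD, while 9 and 15 of 31 MLT1 families were. The MLT1 sums fell about as far, to 0.586 of the 0 h level in DMSO and 0.568 in CD. MT sums stood at 0.538 and 0.583 and ORR1 sums at 0.586 and 0.529. Many MLT1 families were scarce: 33 of 59 had a mean under 1 CPM, beside 0 of 20 MT and 2 of 29 ORR1 families. Differences between these groups were not tested. MTD went from 155 and 151 CPM to 77.9 and 76.1 CPM in DMSO and from 186 and 181 CPM to 90.6 and 83.5 CPM in CD. It fell in both (−0.98 ± 0.13 and −1.07 ± 0.13, adjusted p = 0.0055 and 0.00092), with no overlap between times. MTC and the families that follow, up to MLT1B, were picked by the size of their change in the arm named. Their changes in the other arm are not given, so no fall particular to 1 arm is meant. MTC fell in CD from 112 and 98.6 CPM to 44.9 and 46.1 CPM (−1.19 ± 0.13). In DMSO, MTB (−1.07 ± 0.20), MTB-int (−1.10 ± 0.27), MTE-int (−1.01 ± 0.21) and MTE2a (−1.02 ± 0.16) fell, and ORR1D1 went from 49.5 and 40.4 CPM to 19.0 and 23.3 CPM (−1.05 ± 0.17). ORR1B2 fell in CD from 29.5 and 24.9 CPM to 13.1 and 9.81 CPM (−1.19 ± 0.23). MLT1B fell in DMSO from 19.1 and 19.2 CPM to 8.44 and 9.23 CPM (−1.03 ± 0.20). MLT1C, the most abundant MLT1 family, was lower only as deposited: its 22.1 and 25.9 CPM in DMSO became 15.0 and 15.8 CPM (−0.61 ± 0.16, adjusted p = 0.0251 and, against the median gene, 0.201). ORR1B1, the second most abundant family, moved less than MTD or MTC, from 81.9 and 79.5 CPM to 56.0 and 55.6 CPM in DMSO and from 77.7 and 80.4 CPM to 58.8 and 56.1 CPM in CD. Its change in CD was −0.45 ± 0.12 (adjusted p = 0.0126) in CPM and −0.08 ± 0.10 (0.520) against the median gene, and its sign turned under edgeR.

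**Figure D3:**
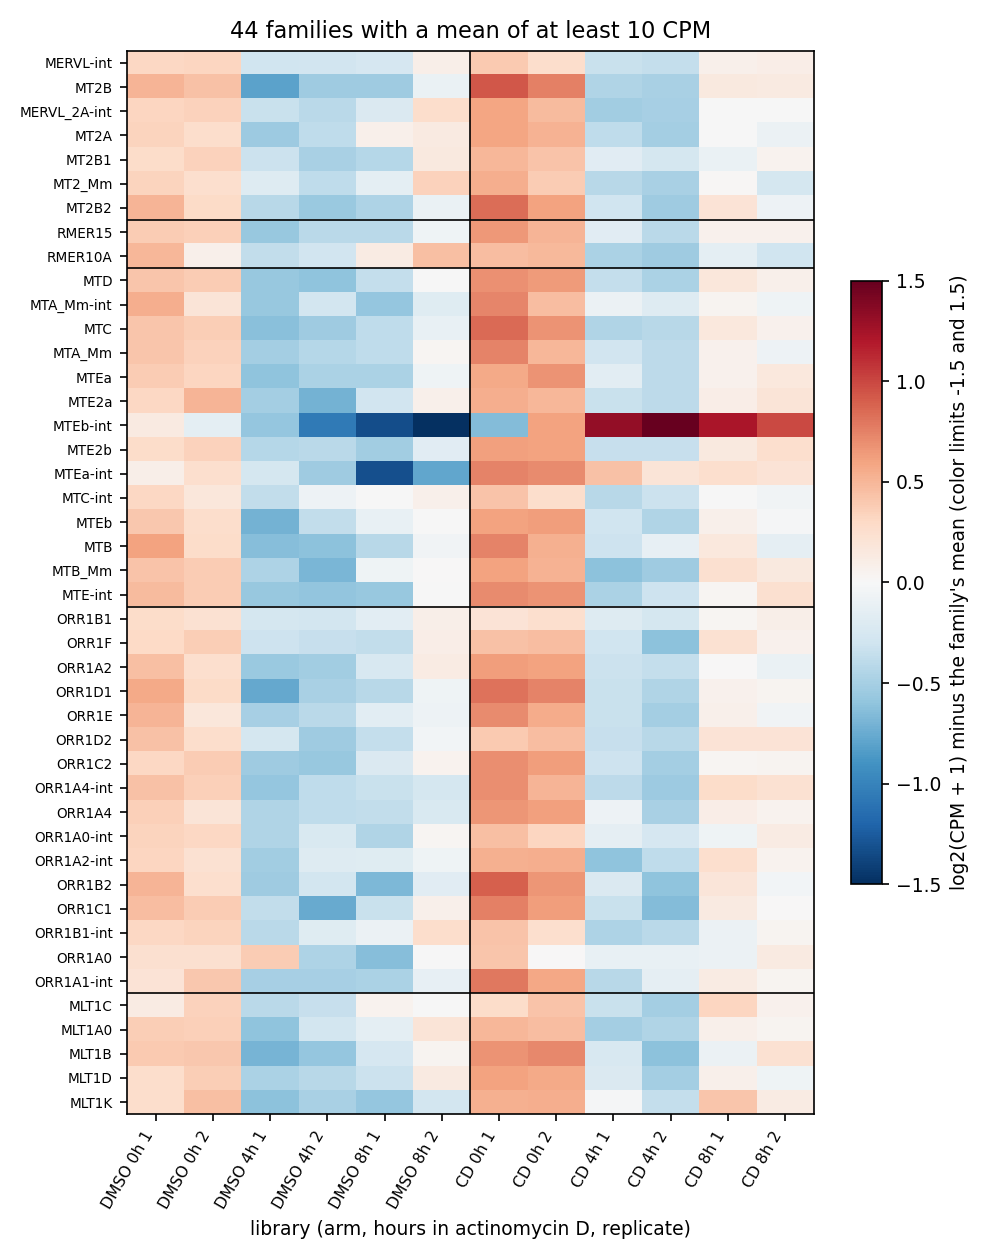
The 44 families with a mean of at least 10 CPM (rows, in the groups MERVL and MT2, RMER, MT, ORR1 and MLT1 from top to bottom) in the 12 libraries (columns). Color is log2(CPM + 1) minus the family's mean over the libraries. Columns at 0 h are red and columns at 4 h blue for nearly all families, whereas MTEb-int is highest in CD at 4 and 8 h (64.9, 78.9, 60.6 and 51.6 CPM).

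The fall at 4 h was shared with other repeats. The share of tested families called lower was 31.3% for ERVL and 51.9% for ERVL-MaLR in DMSO, beside 8.06% for ERV1, 23.2% for ERVK, 45.1% for LINE and 91.2% for SINE families. In CD it was 56.3% and 68.4%, beside 32.3%, 46.4%, 62.3% and 94.1%. No difference between these classes was tested.

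**Figure D4:**
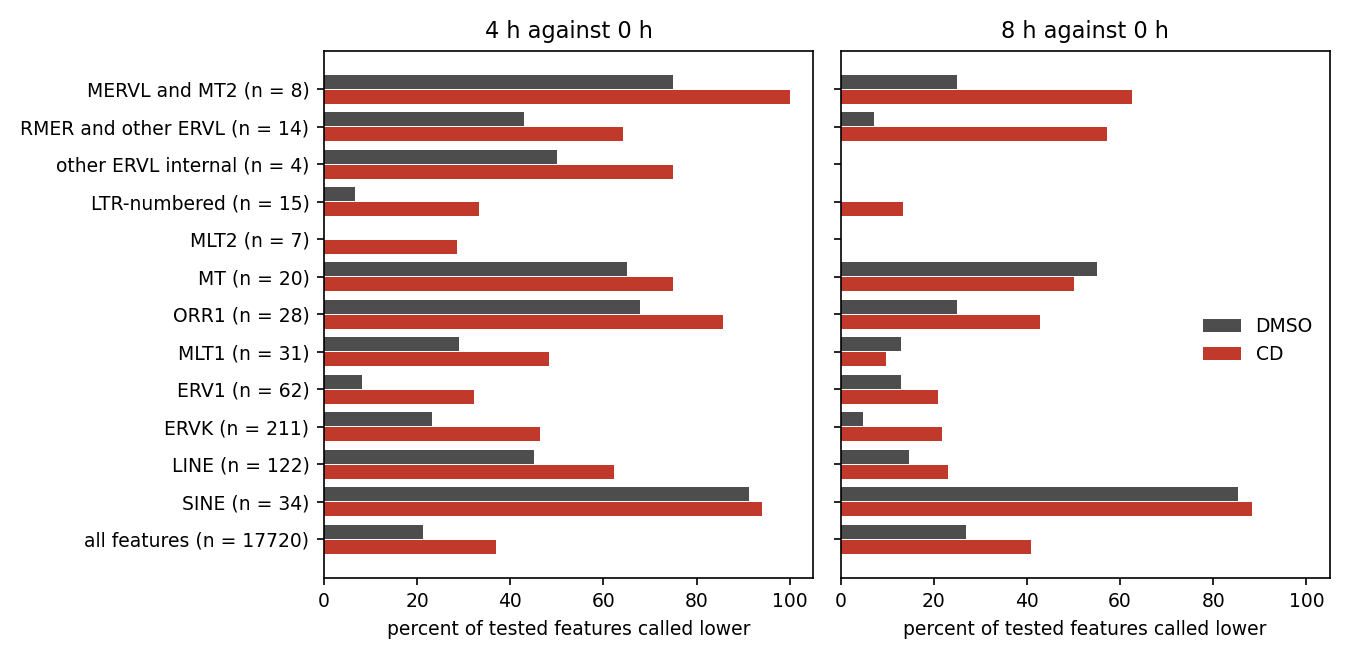
Percent of tested features called lower (limma, adjusted p under 0.05, as deposited) at 4 h (left) and 8 h (right) against 0 h, for the ERVL and ERVL-MaLR name groups, other repeat classes and all features, with the number tested in brackets. Gray bars are DMSO and red bars CD. At 4 h the MERVL and MT2, MT and ORR1 groups stand above all features, with 75.0, 65.0 and 67.9% in DMSO against 21.2%.

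At 8 h the families were back near the median gene. In DMSO, 25 were called lower and 0 higher (background 26.9% lower and 3.64% higher), and in CD 40 lower and 1 higher (40.8% and 12.7%). Both shares, 19.7% and 31.5%, lay below the background. Relative to the median gene, 3 families were lower in DMSO and 8 in CD (12.9% and 29.4% of all features). The median family changed by −0.37 in both arms and the median feature by −0.33 in DMSO and −0.34 in CD. The 4 h and 8 h comparisons of an arm share its 0 h libraries. In CD, MT2B (33.3 and 33.0 CPM, −0.71 ± 0.17), MTC (68.7 and 64.7 CPM, −0.65 ± 0.13), ORR1A2 (37.8 and 35.0 CPM, −0.66 ± 0.15), ORR1D1 (34.5 and 34.0 CPM, −0.73 ± 0.17), ORR1G (6.91 and 5.99 CPM, −0.89 ± 0.19) and RLTR28 (5.32 and 3.66 CPM, −1.04 ± 0.24) were still below 0 h in both scalings. In DMSO, MT2B (20.5 and 28 CPM, −0.79 ± 0.17), MTEa-int and MTEb-int were. MERVL-int stood at 28 and 35.4 CPM in DMSO and 35.1 and 35.7 CPM in CD, and did not pass in either arm (−0.40 ± 0.14 and −0.25 ± 0.14, adjusted p = 0.0581 and 0.171). With any 1 CD library at 0 or 8 h left out, the log2 ratio of 8 h to 0 h in CD was −0.58 to −0.47 for summed ERVL. For summed ERVL-MaLR it was −0.49 to −0.42. The count of families called lower in CD fell in each such fit, as did that of all features. In DMSO it was 1 without DMSO 0 h replicate 1, 2 without DMSO 8 h replicate 1 and 40 without DMSO 8 h replicate 2. In the same 3 fits 368, 250 and 6232 of all features were called lower, against 4765 in the full set. With both 0 h libraries numbered 1 left out, the counts lower were 10 in DMSO and 17 in CD.

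The step from 4 h to 8 h, a comparison added after the sums were seen, was upward in most families but rarely passed the test. In DMSO 0 families were called higher (background 0.655%) and in CD 2 (1.97%), and none was called lower (1.32% and 1.19%). At an unadjusted p under 0.05 in limma, 22 and 47 were higher and 2 and 0 lower. The share of all features at that unadjusted threshold was not counted. With edgeR, 4 families were higher in DMSO and 7 in CD, beside 230 and 418 of all 17720 features. With DESeq2 these were 14 and 12 families, beside 787 and 824 features. ERCC scaling and the replicate block each gave 0 families higher in both arms. The 2 that rose in CD were MTB_Mm, from 8.45 and 9.0 to 16.1 and 14.9 CPM (0.76 ± 0.16, adjusted p = 0.0366), and ORR1A4-int, from 13.9 and 12.3 to 22.6 and 21.7 CPM (0.72 ± 0.16, 0.0389). The CD count was 0 without any 1 of the 4 h libraries of either arm or of the CD 8 h libraries, 6 without either CD 0 h library and 8 without either DMSO 8 h library. Of the 127 families tested, 65 in DMSO and 89 in CD had both 8 h libraries above both 4 h libraries, while 23.2% and 37.1% of all features did. This was shared with other repeats, at 288 and 429 of all 656 repeat families tested. It held for 75 and 99 of 122 LINE and 27 and 32 of 34 SINE families, and for 18 and 33 of 62 ERV1 and 71 and 115 of 211 ERVK families. In CPM, which is relative to all other RNA, the median family with a mean of at least 10 CPM regained 30.5% of its 4 h loss in DMSO. In CD it regained 35.3%. These medians are over 44 and 43 families whose mean was lower at 4 h. Single families ranged from −119.8% (ORR1A0) to 99.1% (RMER10A) in DMSO and from −19.0% (MTEa-int) to 75.6% (MLT1C) in CD. In DMSO the log2 ratio of 8 h to 4 h was 0.13 to 0.42 for summed ERVL-MaLR and 0.19 to 0.52 for summed ERVL when any 1 library was left out. Scaled to the ERCC spike-ins, this ratio for ERVL-MaLR was 0.019 in DMSO and 0.21 in CD, against 0.28 and 0.39 as deposited. For ERVL it was 0.10 and 0.30, against 0.36 and 0.47. MERVL-int and MTD again show the course: MTD was at 90.1 and 115 CPM in DMSO and 130 and 122 CPM in CD at 8 h, between its 4 h and 0 h levels in each arm.

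**Figure D5:**
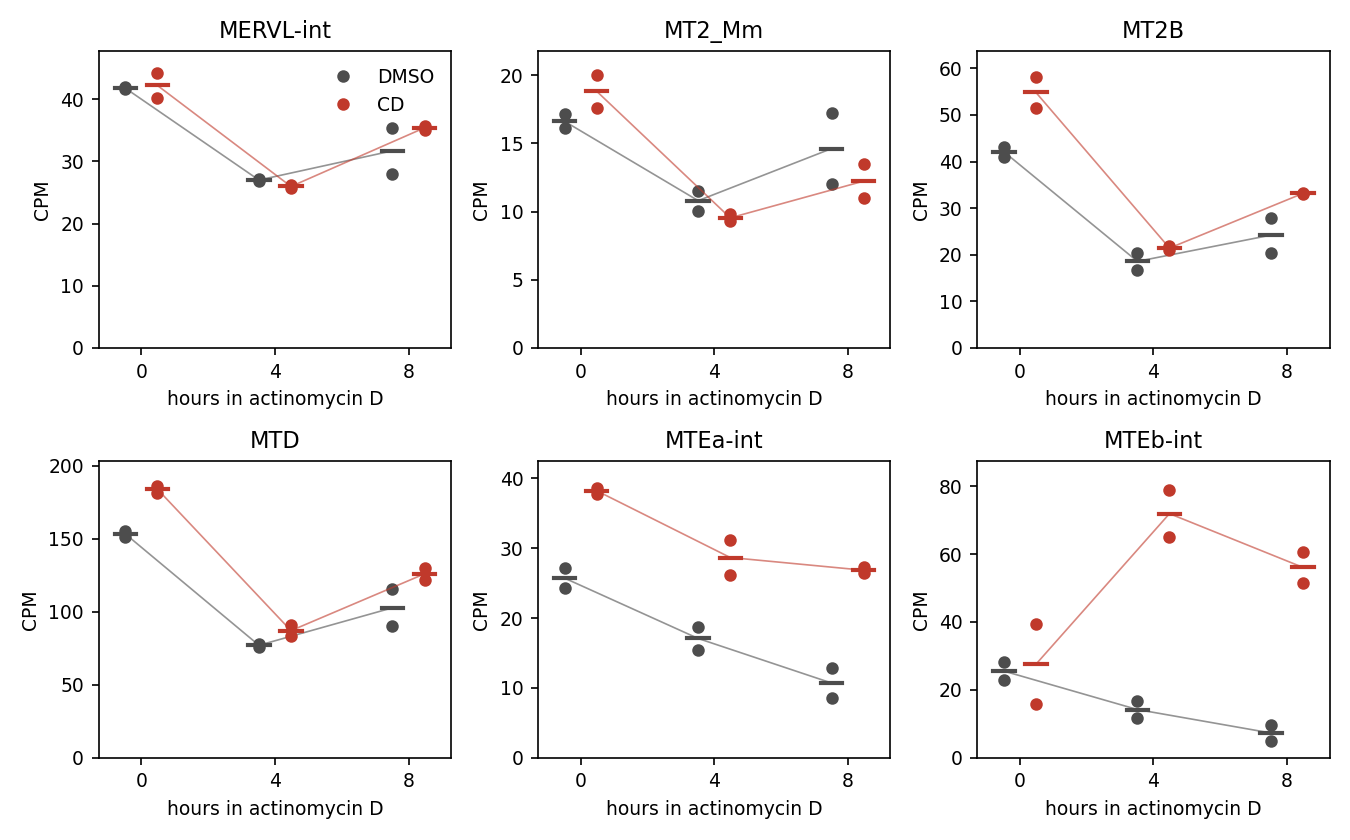
CPM of 6 families in every library by hours in actinomycin D, gray for DMSO and red for CD, with thick bars at the means of 2 libraries. MERVL-int, MT2_Mm, MT2B and MTD are lowest at 4 h in both arms, MTEa-int is lowest at 8 h in DMSO (8.52 and 12.9 CPM), and MTEb-int is above 50 CPM in all 4 CD libraries at 4 and 8 h.

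MTEb-int, an internal region of the MT group, did not follow the other families. In DMSO it was at 28.1 and 23.0 CPM at 0 h, 16.7 and 11.7 CPM at 4 h and 9.54 and 5.07 CPM at 8 h. In CD it was at 15.8 and 39.3 CPM at 0 h, 64.9 and 78.9 CPM at 4 h and 60.6 and 51.6 CPM at 8 h. All treated CD libraries lay above all 0 h libraries, and all treated DMSO libraries lay below the DMSO 0 h libraries. It rose in CD at 4 h (1.48 ± 0.37, adjusted p = 0.0088) and 8 h (1.13 ± 0.37, 0.0255) and fell in DMSO at 8 h (−1.72 ± 0.37, 0.0104), while at 4 h in DMSO it did not pass (−0.82 ± 0.37, 0.138). CD 0 h replicate 1, the library with the low value, decides the rise: without it the CD changes were 0.85 (adjusted p = 0.0812) at 4 h and 0.50 (0.248) at 8 h. The 4 h call in CD was also lost without CD 4 h replicate 2 (1.34), and the 8 h call in CD without CD 8 h replicate 1 (1.01) or 2 (1.24). That 8 h call was lost as well under ERCC scaling (0.80, adjusted p = 0.0588), with no filter (1.13, 0.0626) and with adjustment over repeats alone (1.13, 0.0509). The 8 h call in DMSO was lost without DMSO 0 h replicate 1 (−1.58) and kept without any other single library. Its own LTR, MTEb, fell to 11.3 and 14.5 CPM in DMSO and 15.3 and 13.6 CPM in CD at 4 h from 23.0 to 29.8 CPM at 0 h. MTEa-int, the sister internal region, was in DMSO at 24.2 and 27.2 CPM at 0 h, 18.7 and 15.5 CPM at 4 h and 8.52 and 12.9 CPM at 8 h. It fell at 8 h against 0 h (−1.21 ± 0.20, adjusted p = 0.0052), and the changes at 4 h (−0.57 ± 0.20, 0.0598) and from 4 to 8 h (−0.65 ± 0.20, 0.115) did not pass. In the CD arm it was at 38.6 and 37.8, 31.1 and 26.2, and 27.3 and 26.4 CPM and did not pass at 8 h (−0.49 ± 0.20, adjusted p = 0.0529). A likeness search added after these values were seen gave Rpl15-ps3, a ribosomal protein pseudogene (r = 0.995), Ccdc84 (0.991) and Cand2 (0.985) as the features most like MTEb-int over the 12 libraries, as Pearson correlations of log2(CPM + 1) picked from 17720 features. Rpl15-ps3 was at 13.3 and 25.2 CPM in CD at 0 h and 36.5 and 43.6 CPM at 4 h, with the same low library. For MERVL-int the most alike were Son (0.990) and the LINE family Lx8 (0.987).

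The difference between the arms' changes was not past the threshold for any family. For the 8 h change, limma and edgeR called 0 of 127 families and DESeq2 1 higher. Of all 17720 features, limma called 0.0282% higher and 0% lower, edgeR 2 higher and 0 lower, and DESeq2 33 higher and 24 lower. The limma count of families higher moved without CD 0 h replicate 2, as did that of all features. In limma 4 families were above and 4 below 0 at an unadjusted p under 0.05. At that unadjusted threshold the share of all features was not counted. The median difference was 0.04 for the families and −0.02 for all features. MTEb-int had the largest, 2.85 ± 0.53 (unadjusted p = 0.00022, adjusted p = 0.236), followed at 4 h by 2.29 ± 0.53 (adjusted p = 0.830) in a comparison added afterwards.

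Genes for repression of ERVL and for nuclear RNA decay were called lower more often than higher after actinomycin D. Of 40 tested repressor and heterochromatin genes, 9 were higher and 0 lower in CD at 0 h (beside 7.99% and 6.16% of all features), among them Suv39h2 (an H3K9 methyltransferase, 21.3 and 14.0 CPM against 7.2 and 8.6 CPM), Uhrf1 (a DNA methylation maintenance factor) and Chaf1a (a subunit of chromatin assembly factor 1). In these 3 genes and the summed short-lived mRNAs, CD 0 h replicate 1 had the highest value of the 12 libraries. Without it Suv39h2 (0.76, adjusted p = 0.157), Uhrf1 (0.75, 0.177) and Chaf1a (0.66, 0.166) did not pass, and the features called higher at 0 h went from 1415 to 151. Without DMSO 0 h replicate 2 these were 34. Of these 40, 16 were lower in DMSO and 25 in CD at 4 h (2 were higher in CD), and 30 and 34 at 8 h, beside 21.2%, 36.9%, 26.9% and 40.8% of all features. Relative to the median gene, 15, 19, 18 and 23 were lower, beside 13.3%, 26.2%, 12.9% and 29.4%. Of 29 genes of the RNA exosome and its nuclear adaptors, 3 were higher and 0 lower in CD at 0 h, 8 were lower in DMSO and 20 in CD at 4 h, and 15 and 22 at 8 h, while in CD 2 were higher at 4 h and 1 at 8 h. Relative to the median gene, 3 were higher and 2 lower at 0 h, and 8, 14, 10 and 22 were lower in DMSO at 4 h, CD at 4 h, DMSO at 8 h and CD at 8 h. Of all 17720 features, 1193 were higher and 1505 lower in CD at 0 h relative to the median gene. As deposited, 8.89% of all features were higher in CD at 4 h and 12.7% at 8 h. The other shares of all features are those given for the repressor genes. Zcchc8, of the nuclear exosome targeting complex, was at 33.7 and 27.3 CPM in DMSO at 0 h and 11.0 and 11.9 CPM at 4 h (−1.33 ± 0.20, adjusted p = 0.0059). Mga, of the PRC1.6 repressor, went from 55.5 and 48.9 CPM to 17.2 and 19.4 CPM (−1.46 ± 0.22, 0.0058).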

How the data were processed

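The deposited table holds a signal per gene and repeat family that is CPM: values in every library are whole reads at one step (tolerance 0.003 reads) for all but MMVL30-int, so whole reads were recovered. Per the submitters' processing notes, fastp 0.20.1, HISAT2 2.1.0, StringTie 2.0 and mm10 were used; how repeats were counted, and whether by strand or with multiply mapped reads, is not given in the sources used here. Repeats listed under 2 names were used once.

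Features at 1 CPM or more in at least 2 of 12 libraries were fitted as log2(CPM + 1) with limma 3.58.1 (trend, 6 groups, R 4.3.3) and Benjamini-Hochberg adjustment over 17720 features, threshold 0.05. Alternatives were median-ratio and ERCC scaling, pseudocount 0.1, other filters, edgeR 4.0.16 and DESeq2 1.42.0 on recovered reads, adjustment over repeats, a replicate block and leaving out libraries. Errors are SE for log2 changes and SD for levels. Named families were MERVL-int, MT2_Mm, the most abundant of each name group and, per comparison and direction, the 8 largest changes past the threshold in both scalings without overlap and with a mean of at least 2 CPM in the higher group; MTEb, MTEa-int, MTC and MTEb-int outside that rule, and features alike to 2 families, were named after their values were seen. Members, gene lists and tests were chosen with earlier results of these data known. The method was tested on simulated data. Other tables of the series hold only genes and were not used here.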

Additional observations from a re-analysis of the deposited data

Results flagged for a closer look

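MTEb-int was noted because every CD library at 4 and 8 h lay above both CD libraries at 0 h while every DMSO library lay below both DMSO libraries at 0 h. The difference of the changes, CD minus DMSO, was 2.29 ± 0.53 (log2) at 4 h and 2.85 ± 0.53 at 8 h. Tested with limma over all features, neither passed (adjusted p = 0.830 and 0.236).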

How the results depend on the processing

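Each alternative changed 1 choice, or the 2 named, except that edgeR and DESeq2 also brought their own scaling by gene ratios. The order here is DMSO 4 h, CD 4 h, DMSO 8 h and CD 8 h against 0 h. Of all 17720 features, 3761, 6540, 4765 and 7229 were called lower as deposited. Median-ratio scaling gave 2355, 4651, 2282 and 5206, edgeR 2524, 4310, 2340 and 4683, and DESeq2 2922, 4462, 2641 and 4890. With median-ratio scaling and the replicate block they were 1893, 4446, 1920 and 4990. Counts of families called lower were, in the same order, 56, 81, 25 and 40. They were 31, 50, 3 and 8 with median-ratio scaling, 27, 44, 3 and 4 with edgeR and 32, 45, 2 and 4 with DESeq2. Median-ratio scaling and the block gave 22, 48, 2 and 5 families. ERCC scaling gave 0 for DMSO at 4 h, no filter 37 for DMSO at 4 h and 12 at 8 h, adjustment over repeats alone 15 for DMSO at 8 h, and leaving out both 0 h libraries numbered 1 gave 31, 10 and 17 for DMSO 4 h, DMSO 8 h and CD 8 h. Families higher in CD at 8 h, 1 as reported, were 3 with median-ratio scaling or DESeq2, 4 with edgeR, 2 with median-ratio scaling and the block, and 0 with ERCC scaling, no filter, repeats alone or both 0 h libraries left out; in CD at 4 h the last gave 0, and in DMSO at 8 h no filter gave 1. Of all features, 2259 were higher in CD at 8 h as deposited, 4116 with median-ratio scaling, 4681 with edgeR and 4274 with DESeq2. The difference of 8 h changes had 1 family higher with DESeq2, beside 33 of all features, and 1 over repeats alone, beside 4 of all repeat families. With median-ratio scaling, 449 of all features were higher in DMSO and 473 in CD from 4 to 8 h. From 4 to 8 h, families higher in DMSO were 8 with median-ratio scaling, 4 with edgeR, 14 with DESeq2 and 2 without both 0 h libraries; in CD they were 9, 7, 12 and 12, and 12 over repeats alone, 4 and 6 with filters at 5 CPM (in 2 libraries or on the mean), 1 with median-ratio scaling and the block, and 0 with ERCC scaling, no filter or the block.

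Leaving out 1 library at a time gave 0 to 59, 50 to 81, 1 to 40 and 12 to 45 families lower in those 4 comparisons, 0 to 3 higher in CD at 0 h, 0 to 1 higher in CD at 4 h, at 8 h and in either difference, and 0 to 1 lower in DMSO and 0 to 8 higher in CD from 4 to 8 h.

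The log2 ratio of the summed ERVL level for CD against DMSO at 0 h was 0.22, but 0.082 with median-ratio and 0.44 with ERCC scaling (ERVL-MaLR 0.23, 0.094 and 0.45). With median-ratio scaling ERVL stood at −0.47, −0.62, −0.0096 and −0.18 and ERVL-MaLR at −0.52, −0.46, −0.14 and −0.11 for DMSO 4 h, CD 4 h, DMSO 8 h and CD 8 h. With ERCC scaling ERVL stood at −1.16, −0.69 and −0.86 and ERVL-MaLR at −1.01, −0.82 and −0.79 for CD 4 h, DMSO 8 h and CD 8 h, and from 4 to 8 h at 0.10 and 0.30 (ERVL) and 0.019 and 0.21 (ERVL-MaLR) in DMSO and CD. Of 2567 single-family values, 2368 kept direction and side of the threshold, 165 lost the call, 33 gained it and 1 changed sign: ORR1B1 in CD at 4 h, 0.0068 with edgeR. The causes were not tested.

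The replicate numbers did not pair the libraries in the same way across groups. Same-numbered deviations correlated from −0.69 (DMSO at 8 h with CD at 0 h) to 0.54 (DMSO with CD, both at 0 h). With the replicate block alone the counts of families lower were 51, 77, 24 and 37, beside 3162, 6196, 4105 and 6880 of all features. Depth and 2 libraries per group limit calls for the 108 families under 1 CPM.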
